A study of Homo sapiens with 151 samples.

Results

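The cytosolic ribosomal protein (RP) genes encode the protein part of the ribosome that works in the cytoplasm, and their promoters are examined here for the DNA-associated proteins (DAPs) found at them in HepG2 cells. Members were all GENCODE protein-coding genes on the autosomes and the X Chromosome that carry an RPL or RPS symbol followed by a number, together with RPSA, RPLP0, RPLP1 and RPLP2. The kinases of the RPS6K family were left out. These criteria gave 84 promoters among 19970 protein-coding promoters, 52 of the large subunit and 32 of the small subunit. Of the 84 members, 77 are core ribosomal proteins and 7 are paralogs. The criteria use no measured value, but they were set with earlier results of these data known.

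Peak lists were made from 127 ChIP-seq experiments in HepG2, an established human liver cancer cell line, each with another DAP tagged with FLAG and precipitated with an anti-FLAG antibody. A list is called preferred when the authors chose it to represent its DAP, and 121 lists are preferred, 106 of transcription factors (TFs) and 15 of other DAPs such as cofactors. The other 6 lists are non-preferred, and the remaining 24 of the 151 samples are input libraries without antibody, for which no list was used here. All cells were untreated HepG2 that differed between lists in the tagged DAP, so the comparisons below are between groups of promoters within a list.

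The preferred lists held 1410609 peaks in all, from 195 to 61748 per list with a median of 8680. Each DAP has a single list, sequencing depth is unknown, and lists called against the same input library share that control. The p-values therefore measure the spread between lists and not between cultures or between promoters. A promoter was taken as the canonical transcription start site (TSS) with 500 bp on either side, and it was called bound by a DAP when a peak of that list overlapped it by at least 1 bp. As a check of the cell type, promoters of 8 hepatocyte genes were bound by a median of 64.5 lists, with APOB highest at 97 and FGB lowest at 1. Promoters of 8 genes of other tissues were bound by a median of 0.5 lists, of which MYH7 was highest at 39 and 4 were at 0. The sets overlapped, since ALB had 13 lists and TTR 22 among the hepatocyte genes, and SYN1 of the other set had 26.

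Ribosomal proteins are made in equal amounts for each ribosome, and their genes are transcribed at high levels in nearly all dividing cells. In mammals their mRNAs begin with a C followed by a run of pyrimidines, the 5′ terminal oligopyrimidine (TOP) tract, through which mTOR signaling controls their translation. The promoters usually lack a canonical TATA box, lie in CpG islands and start transcription within that pyrimidine run.

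The start region of the 4 most bound and the 8 least bound members is shown so that the pyrimidine run can be set beside the number of lists. Each line gives 15 bases before the TSS, the TSS and 14 bases after it, 5′ to 3′ along the gene, from hg38. Capitals mark the longest run of C and T that reaches within 5 bp of the TSS, where that run has at least 6 bases. The marked run need not contain the TSS. In RPL10A it begins after the TSS, and in RPS15A it ends before the TSS, which lies in a shorter run left in lower case.
RPL10A, chr6:35468386-35468415, plus strand, 104 lists: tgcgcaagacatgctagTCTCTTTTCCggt
RPL31, chr2:101002274-101002303, plus strand, 100 lists: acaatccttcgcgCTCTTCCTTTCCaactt
RPS15A, chr16:18790320-18790349, minus strand, 93 lists: CTCTCCCCTCCCgtcctctttccgccatct
RPS7, chr2:3575245-3575274, plus strand, 88 lists: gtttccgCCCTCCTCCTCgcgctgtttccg
RPL34, chr4:108620561-108620590, plus strand, 30 lists: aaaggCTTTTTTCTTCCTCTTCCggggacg
RPL10, chrX:154398362-154398391, plus strand, 28 lists: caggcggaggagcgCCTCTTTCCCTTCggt
RPS4X, chrX:72277234-72277263, minus strand, 23 lists: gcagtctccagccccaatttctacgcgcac
RPL36A, chrX:101390996-101391025, plus strand, 21 lists: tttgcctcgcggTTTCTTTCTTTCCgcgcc
RPL39, chrX:119791616-119791645, minus strand, 16 lists: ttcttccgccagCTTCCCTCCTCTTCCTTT
RPL3L, chr16:1954675-1954704, minus strand, 1 list: agtcctggccctgccactcgacctctggcg
RPL10L, chr14:46651767-46651796, minus strand, 0 lists: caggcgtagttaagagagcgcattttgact
RPL39L, chr3:187139482-187139511, minus strand, 0 lists: gcatccggggaaatcgcggtcttagcatcc

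A run of at least 6 pyrimidines at the TSS was present in 69 of the 84 members (82.1%), against 22.4% of all coding promoters, 15.4% of the 78 promoters of mitochondrial ribosomal proteins and 22.9% of the 48 promoters of proteasome subunits. Among core members the count was 68 of 77 (88.3%), while 1 of the 7 paralogs had such a run. The median run was 11 bases in the members and 4 bases in all coding promoters. Among the core members, the 68 with a run were bound by a median of 58.0 lists and the 9 with a shorter one by 56.0 lists. The length of the run and the number of lists had a Spearman's rho of -0.216 and a Pearson's r of -0.201 over the 77 core members, as a description.

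The RP promoters were bound by many more DAPs than the usual coding promoter. The median member was bound by 56.0 of the 121 lists, with quartiles of 46.8 and 70.0 and a range of 0 to 104, whereas the median over all coding promoters was 15 lists. Peaks from 31 or more lists, that is 25% of them, were found at 76 of 84 members (90.5%). The shares were 37.0% of all coding promoters and 52.7% of CpG promoters. The paper defines high occupancy target (HOT) sites by the same 25%, but over merged peak centers and its full set of DAPs. These shares are therefore not rates of HOT sites. At least 1 list had a peak at 82 of 84 members, against 68.1% of all coding promoters. CpG promoters are those with a GC content over 50% and an observed over expected CpG ratio over 0.6 in the window; 78 of the 84 members met both limits, and the median CpG promoter was bound by 33.0 lists.

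**Figure D1:**
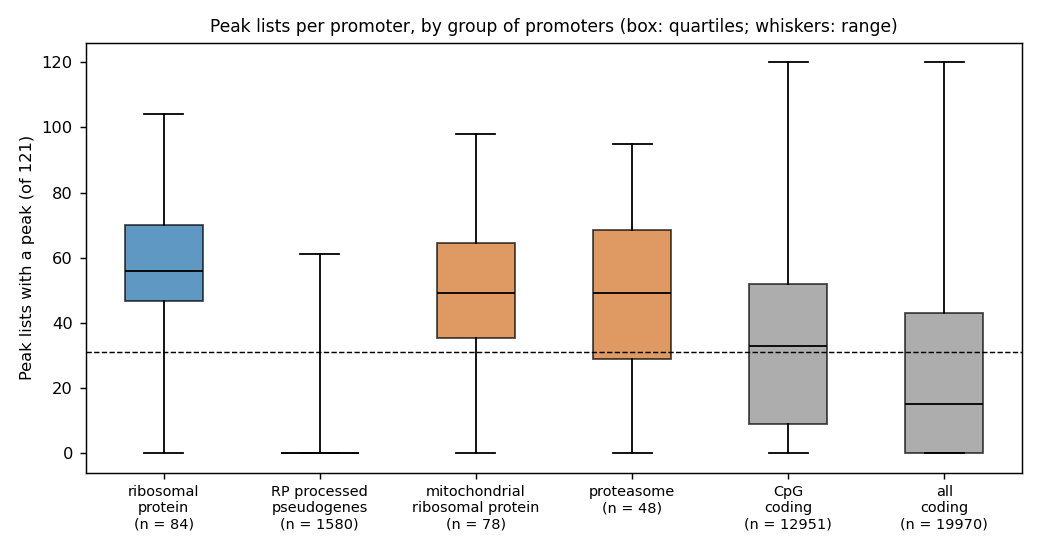
Peak lists per promoter (vertical axis, of 121 preferred lists) for RP promoters, their processed pseudogenes, promoters of mitochondrial ribosomal proteins and of the proteasome, CpG coding promoters and all coding promoters; boxes are quartiles with the median, whiskers the range, and the dashed line is 31 lists. The RP promoters have the highest median of the groups drawn, 56.0 lists, and their lower quartile of 46.8 lies above the medians of CpG coding promoters (33.0) and all coding promoters (15).

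The difference held list by list. On average a list had a peak at 46.5% ± 26.4 of RP promoters and at 19.9% ± 13.5 of all coding promoters (SD over 121 lists), a difference of 26.6 percentage points, and the RP share was the higher one in 119 of 121 lists (sign-flip permutation test over lists, two-sided, adjusted p = 1.1e-05). In the exceptions, ZBTB22 and ZNF853, peaks were at 0 and 1 member. Against CpG promoters, of which a list bound 27.7% ± 18.5, the difference was 18.8 points, with a higher RP share in 117 of 121 lists (sign-flip permutation test, adjusted p = 1.1e-05). Lists were also grouped by the input library, or the set of input libraries, against which they were called. All 15 such groups with 3 or more lists gave a positive mean difference in both comparisons, from 15.1 to 33.9 points against all coding and from 11.1 to 25.2 points against CpG promoters. Each raw p of these tests was 1e-05, the smallest that 100000 sign flips can give, and 8 tests were adjusted together by the Benjamini-Hochberg method.

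Other housekeeping promoters stood closer to the RP promoters. Promoters of mitochondrial ribosomal proteins, the proteins of the separate ribosome in mitochondria, were bound by a median of 49.0 lists and 83.3% of them by at least 31 lists. Per list the RP share exceeded theirs (42.4% ± 25.7) by 4.09 points, with a higher RP share in 84 lists and a lower one in 36 (sign-flip permutation test, adjusted p = 1.1e-05). The means within the input groups ran from -4.96 to 10.0 points and were positive in 11 of 15. Promoters of the proteasome, the complex that degrades tagged proteins, also had a median of 49.0 lists, and 72.9% of them were bound by at least 31. The RP share exceeded theirs (41.0% ± 24) by 5.51 points, with a higher RP share in 85 lists and a lower one in 33 (sign-flip permutation test, adjusted p = 1.1e-05), and 12 of 15 input groups gave a positive mean, from -4.76 to 10.4 points. With core members on autosomes alone, against the autosomal promoters of the other group, these differences came to 7.72 and 8.37 points. With a window around any annotated TSS the difference from the proteasome was 3.51 points (adjusted p = 6.0e-05, permutation test over lists). Between promoters the spread was wide, with a mean of 56.3 ± 20.4 lists for RP promoters (SD over promoters). The means were 51.3 ± 20.9 for mitochondrial RP and 49.6 ± 23.9 for proteasome promoters. These tests take the promoters as given and ask only whether lists differ.

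The most bound members belonged to both subunits. RPL10A, a protein of the L1 stalk, had the highest count with 104 lists, and RPL31 of the large subunit followed with 100. RPS15A had 93 lists, RPS7 had 88, RPL37A and RPS12 had 86 each, RPS15 had 84, and RPS6, the substrate of the S6 kinases, had 82. RPS27A, which is made as a fusion with ubiquitin, had 81 lists and RPL23 had 80. These 10 promoters lie on 6 chromosomes, and 4 of them are the only core members on Chromosome 2. The medians of other CpG coding promoters were 53.0 lists on Chromosome 2, 48.5 on 6, 52.0 on 16 and 41.0 on 17. They were 29.0 lists on Chromosome 9 and 28.0 on 19, and 34.0 over all autosomes.

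The strength of a peak was taken from its rank. Within a list, peaks were ranked by the authors' signal, so that the strongest peak is at percentile 100. Over the lists that bound it, the median percentile of the peak was 95.2 at RPL31, 92.5 at RPS15A, 91.1 at RPS7 and 87.1 at RPL10A. It was lower at others of the 10 most bound members, with 78.9 at RPS6, 74.6 at RPS12 and 64.3 at RPS27A. Among the least bound core members it was 68.2 at RPL34, 57.2 at RPL30, 46.9 at RPL39 and 43.6 at RPL7. Across the 77 core members the number of lists and this median percentile went together (Spearman's rho = 0.749, Pearson's r = 0.780, given as a description, since the same lists enter both). RPL31 carried the strongest peak of all members in 32 of the 120 lists that bound any, RPS15A in 21, RPS7 in 13 and RPL10A in 9.

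**Figure D2:**
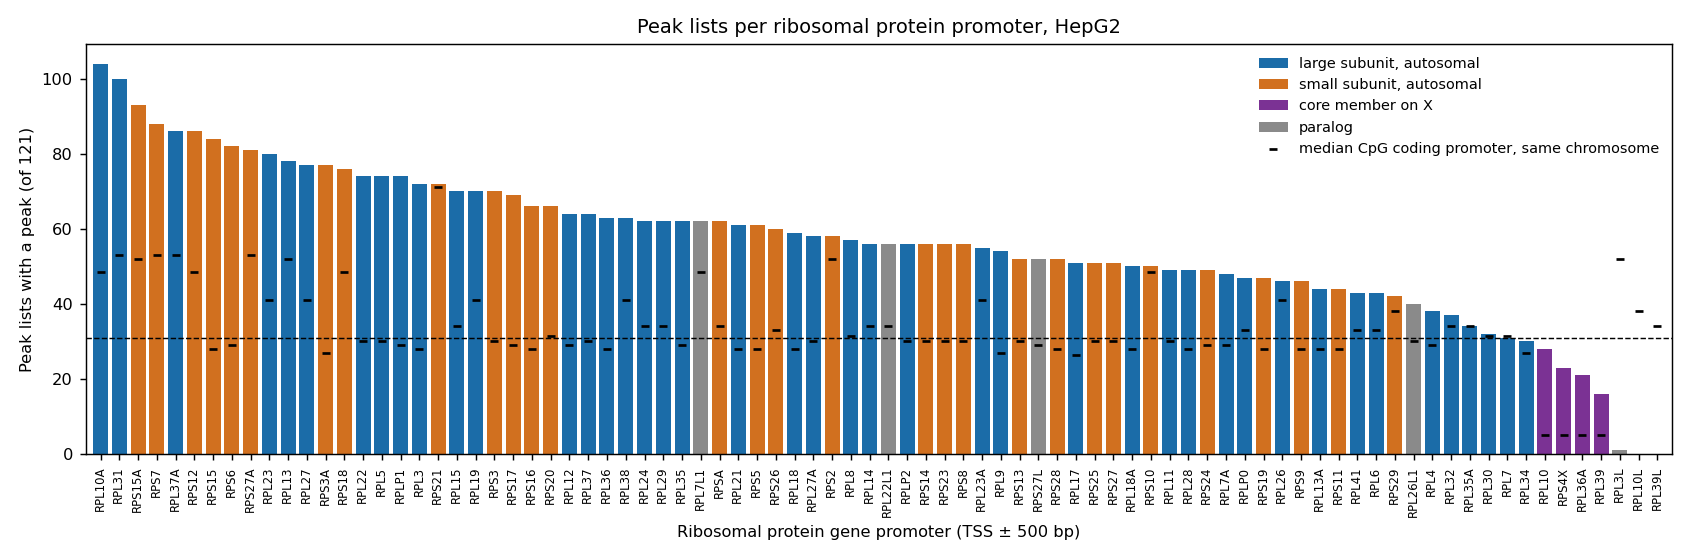
Number of preferred peak lists (vertical axis, of 121) with a peak at each of the 84 RP promoters, sorted; colours give autosomal members of the large and small subunit, core members on X and paralogs, black dashes the median of other CpG coding promoters on the same chromosome, and the dashed line 31 lists. RPL10A (104) and RPL31 (100) are highest, and the 4 core members on X (16 to 28) stand below every autosomal core member (30 to 104).

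Among the other members of known role, the acidic stalk proteins that recruit translation factors differed from each other: RPLP1 had 74 lists, RPLP2 had 56 and RPLP0, their anchor on the ribosome, had 47. RPSA, a small subunit protein also known as the laminin receptor, had 62. RPL34 had 30 lists, RPL7 had 31 and RPL30 had 32, the lowest counts among core members on autosomes. For RPL7 the count depended on the start site used: a window around any annotated TSS of the gene gave 46 lists. The same change took RPS29 to 77 lists, against 42 with the canonical TSS, and RPL27A to 79, against 58, these 2 genes being named after their values were seen as those that gained most.

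The paralogs split into a bound and an unbound set. RPL7L1 was bound by 62 lists, RPL22L1 by 56, RPS27L by 52 and RPL26L1 by 40, all within the range of the autosomal core members. RPL3L, which replaces RPL3 in heart and skeletal muscle, had 1 list, that of ZFP91. RPL10L and RPL39L, both expressed mainly in the testis, had a peak in 0 of 121 lists. The CpG limits were met by 6 of the 7 paralogs, among them the unbound RPL10L and RPL39L, and not by RPL3L.

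Processed pseudogenes, copies of RP mRNAs inserted elsewhere in the genome without the parent promoter, were nearly free of peaks. Of 1580 such pseudogenes, 115 (7.28%) had a peak of any list within 500 bp of their 5′ end, 53 of them of a single list, and 2 reached 31 lists. The pair was RPSAP31 with 61 lists and RPL13P5 with 34, whose 5′ ends lie 35 bp and 86 bp from the TSS of a coding gene. Beyond 1000 bp of a coding TSS the highest count was 26 lists. The share among other windows away from promoters was not counted, and how uniquely reads map to these copies was not examined.

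The chromosome on which a member lies moved with its count. All 4 core members on X were below 31 lists: RPL10, a large subunit protein that joins late in ribosome assembly, had 28, RPS4X had 23, RPL36A had 21 and RPL39 had 16. The autosomal core members had a median of 59.0 lists, and 72 of 73 reached 31. Other CpG coding promoters showed the same order, with a median of 5 lists for the 443 on X and of 34.0 lists for the 12430 on autosomes, so that each X-linked member was above the median of its own chromosome. In all, 50 lists bound at least 1 of the 4 X-linked members, and MGA, ZBTB12 and ZMYM4 bound all 4.

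Among autosomes, core members were highest on Chromosomes 2 (median 87.0, 4 members), 6 (81.0, 4 members) and 16 (78.0, 3 members), where other CpG coding promoters had medians of 53.0, 48.5 and 52.0 lists. The highest median of other CpG coding promoters, 71.0 lists, was on Chromosome 20, where the 1 core member, RPS21, had 72. On Chromosome 14 the 1 core member, RPS29, had 42 lists, against a median of 38.0. On Chromosome 19, which holds 12 core members, the medians were 51.0 lists for members and 28.0 for other CpG promoters. The core median exceeded that of other CpG promoters on all 21 chromosomes with a core member, and the 2 medians rose together across these chromosomes (Spearman's rho = 0.487, Pearson's r = 0.718, a description over 21 chromosomes with 1 to 12 members each). Of the 77 core members, 75 were above the median of other CpG coding promoters on their own chromosome, and RPL35A and RPL7 were not. With CpG promoters weighted to the chromosomes of the core members, a list bound 48.5% of core members and 26.7% of CpG promoters on average, a difference of 21.8 points (sign-flip permutation test over 121 lists, p = 1e-05). What sets the level of a chromosome was not tested.

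**Figure D3:**
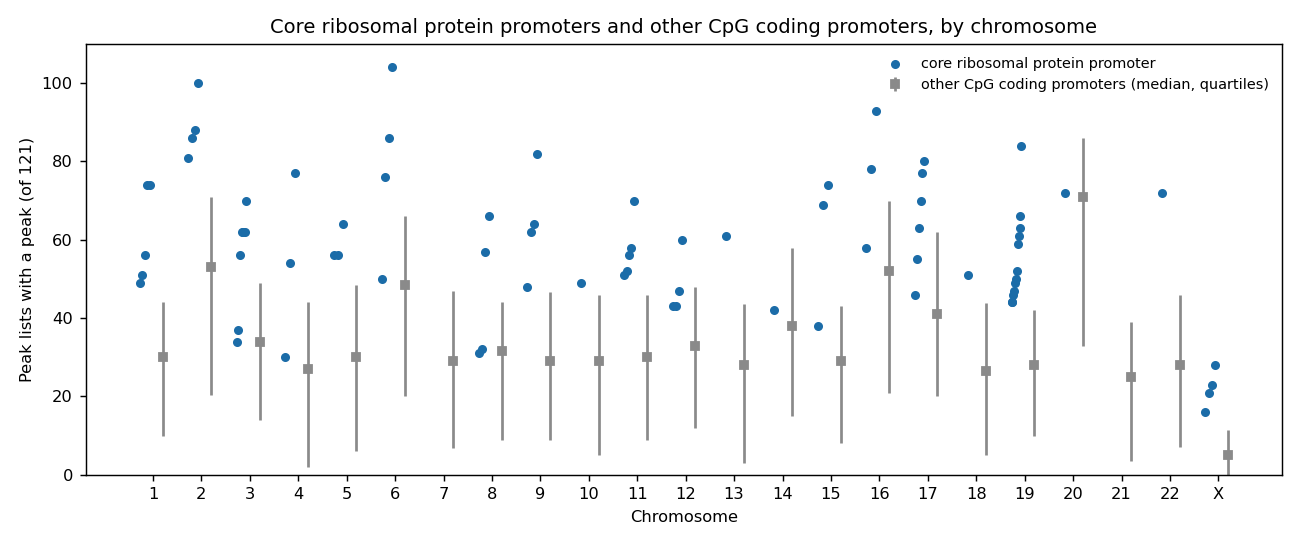
Number of preferred peak lists (vertical axis, of 121) at each core RP promoter (blue points) and the median with quartiles of other CpG coding promoters (grey squares and bars), by chromosome. Both groups are lowest on X (medians 22 and 5), and members on Chromosomes 2, 6 and 16 stand highest, above raised medians of the other promoters there. The other promoters have their highest median on Chromosome 20 (71), beside 1 member at 72.

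Large subunit promoters were bound by fewer lists than small subunit promoters. A list bound 43.7% ± 25.6 of the 52 large subunit members and 51.1% ± 28.9 of the 32 small subunit members, a difference of -7.36 points, with the large subunit lower in 92 lists and higher in 27 (sign-flip permutation test over lists, adjusted p = 1.1e-05). The large subunit includes 6 of the 7 paralogs and 3 of the 4 X-linked core members. Without paralogs and X-linked members, the difference was -3.86 points (adjusted p = 1.0e-04 by the same permutation test), with medians of 58.0 lists for 43 large subunit promoters and 60.5 lists for 30 small subunit promoters. The test takes the promoters as given and asks only whether lists differ.

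Genes that share features with the RP genes were also counted, from lists chosen with earlier results of these data known. The promoters of 16 translation factors and other genes with TOP mRNAs had a median of 53.0 lists, from EIF3H, a subunit of initiation factor 3, at 30 to EEF1A1, the elongation factor that delivers tRNAs, at 80, and 15 of them reached 31 lists. The promoters of 32 ribosome biogenesis genes had a median of 59.5 lists with a wider range, from BOP1 at 13 to NCL, which encodes nucleolin, at 105, and 25 of them (78.1%) reached 31 lists. Core members that host snoRNAs in their introns (28, median 57.0) and the other core members (49, median 59.0) had similar counts, as had those with a divergent coding neighbour within 500 bp (12, median 58.5) and those without (65, median 57.0). These splits were not tested.

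The lists themselves ranged from 0 to 80 bound members. SALL1 and MGA each bound 80 of 84 members (95.2%), against 55.2% and 50.0% of all coding promoters. ZBTB12, ZFP91, POU2F1 and ZMYM4 bound 79 each, against 54.2%, 53.1%, 52.9% and 49.3% of all coding promoters. E2F8 bound 78 (44.9% of all coding), ZNF701 75 (39.3%), and SALL2 and SMAD7 74 each (36.3% and 42.9%). In 7 lists at least 90% of members were bound, and in 56 lists at least 50%. The lists with most members were long ones, with 17016 to 61748 peaks for those from SRY (73 members) to SALL1, and the share of members bound rose with the number of peaks (Spearman's rho = 0.892 over 121 lists, as a description).

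**Figure D4:**
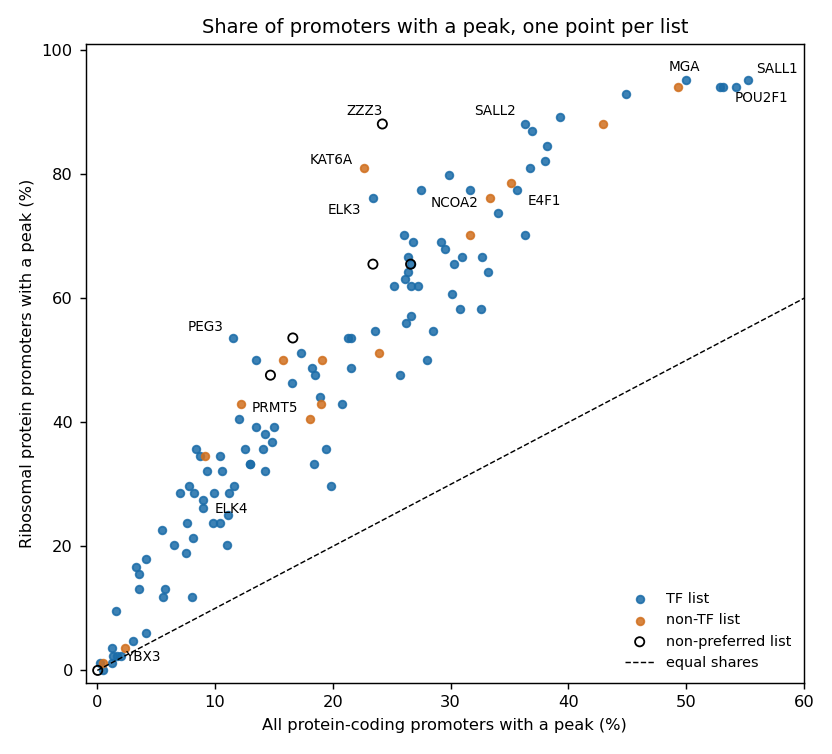
Percentage of RP promoters bound (vertical axis) and of all protein-coding promoters bound (horizontal axis), one point per list, for TF, non-TF and non-preferred lists; the dashed line marks equal shares. Nearly all points lie above the line, and KAT6A (81.0% against 22.6%) and ELK3 (76.2% against 23.4%) are the preferred lists farthest above it.

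The excess of the RP share over the share of all coding promoters also rose with the number of peaks (Spearman's rho = 0.789 over 121 lists, as a description), and the lists with the largest excess were longer than the median list. KAT6A, a histone acetyltransferase and a non-TF DAP, bound 68 members (81.0%) and 22.6% of all coding promoters, an excess of 58.3 points with 11106 peaks. ELK3, a TF of the ETS family, bound 64 members (76.2%) and 23.4% of all coding promoters, an excess of 52.8 points with 10503 peaks. SALL2 followed with an excess of 51.8 points, ZNF701 and SRY (36.9% of all coding promoters) with 50.0 points each, and NCOA2, a coactivator of nuclear receptors (27.5% of all coding promoters), with 49.9 points. ZNF558 (67 members, 29.9% of all coding promoters), E2F8, ZNF430 (71 members, 38.2%) and ZNF747 (65 members, 31.6%) completed the 10 largest, with excesses of 49.8, 48.0, 46.3 and 45.8 points. For KAT6A the excess was also seen against kindred promoters, as it bound 56.4% of mitochondrial RP promoters and 62.5% of proteasome promoters, and for ELK3 these shares were 53.8% and 58.3%. POU2F1, by contrast, bound 94.0% of RP promoters and 97.4% of mitochondrial RP promoters, and STAT5A 70.2% and 78.2%. STAT5A bound 36.3% of all coding promoters.

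The strongest KAT6A peak at a member was the one at RPS7, ranked 23 of 11106 peaks by signal, followed by RPL13A at rank 135 and RPS6 at rank 147. Of the KAT6A peaks at members, 44.1% were in the top 10% of the list, and their median percentile was 87.3, against 63.5 at other coding promoters. For POU2F1, the octamer-binding TF, 59.5% of its peaks at members were in the top 10%, with a median percentile of 90.9 at members and 78.7 at other coding promoters. ZBTB12 had its strongest member peak at RPS12, rank 12 of 57621. E4F1, a zinc finger TF, bound 65 members (77.4%, against 35.6% of all coding promoters) and had its strongest member peak at RPS16, rank 21 of 17623. NCOA2 bound 65 members without a peak of its top 10% at any of them, and its strongest, at RPL27, had rank 4217 of 31878. Its median percentile was still higher at members, 55.8 against 42.2 at other coding promoters.

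Some lists had few peaks at RP promoters, and few at coding promoters in general. The smallest excesses, from ZBTB22 to DPF1, belonged to short lists of 195 to 4673 peaks: ZBTB22 bound 0 members, against 0.456% of all coding promoters. ZNF853, CENPX and SCMH1 bound 1 member each (1.19%), against 1.22%, 0.471% and 0.195% of all coding promoters. HMGN3 and ZNF334 bound 2 each (2.38%), against 1.99% and 1.34%. TRIM24 bound 3 members (3.57%) with 4673 peaks, against 2.32% of all coding promoters. LHX6 bound 4 (4.76% against 3.06%) and DPF1 bound 5 (5.95% against 4.12%). YBX3, a cold shock domain protein, bound 2 members (2.38%) and 1.67% of all coding promoters with its 861 peaks. ZNF148, with 2460 peaks, had a larger excess and bound 17 members, 20.2% against 6.52% of all coding promoters.

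Among the remaining named TFs, all had a higher share at members than at all coding promoters. The shares were 61.9% and 25.2% for SIX5, 48.8% and 18.2% for KLF15, 40.5% and 12.0% for THAP1, 35.7% and 12.5% for MLXIP, 32.1% and 9.35% for NPAS2, 26.2% and 9% for ELK4 and 19% and 7.56% for E2F7, each pair in the order members and all coding promoters. Against mitochondrial RP and proteasome promoters the order was mixed. E2F7 bound more of these, 26.9% and 29.2%, than of members. ELK4 bound 30.8% of mitochondrial RP and 12.5% of proteasome promoters, and THAP1 33.3% and 41.7%. SIX5, KLF15, MLXIP and NPAS2 had a higher share at members than in either group. PRMT5, an arginine methyltransferase, bound 42.9% of members and 12.2% of all coding promoters. As classes, TF lists had an excess of 26 ± 14 points (SD, 106 lists) and non-TF lists an excess of 31.3 ± 15.8 points (SD, 15 lists), a difference of -5.38 points that did not pass the threshold (permutation test over lists, two-sided, adjusted p = 0.18).

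Peaks at RP promoters were stronger within their lists and lay farther downstream. In the 111 lists with at least 5 bound members, the median percentile of the strongest peak per promoter averaged 68.5 ± 12.2 at members and 62.8 ± 7.23 at other bound coding promoters, a difference of 5.73 and higher at members in 88 lists (sign-flip permutation test, adjusted p = 1.1e-05). Where only peaks past a stricter authors' score were kept, the difference was 1.47 (adjusted p = 0.14, permutation test over lists). The median summit lay 37.0 ± 57.6 bp downstream of the TSS at members and 4.09 ± 43.8 bp downstream at other coding promoters (SD over 111 lists), a difference of 33.0 bp and farther downstream at members in 97 lists (sign-flip permutation test, adjusted p = 1.1e-05). Of the 4729 bound pairs of list and member, 34.7% had their summit from 0 to 100 bp downstream of the TSS, against 19.9% of pairs at other coding promoters, and 18.1% had it in the 100 bp upstream, against 15.5%. Within the input groups the difference in the median summit ran from -10.5 to 76.5 bp and was positive in 13 of 15.

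**Figure D5:**
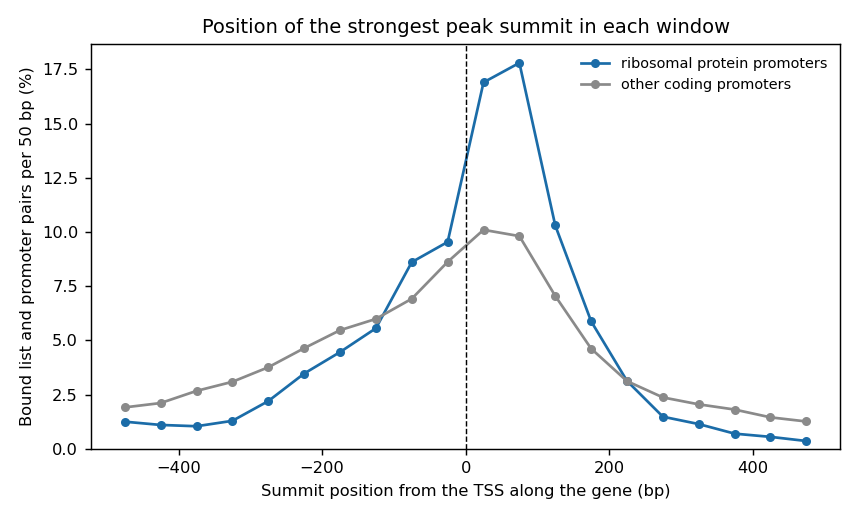
Position of the strongest peak's summit from the TSS along the gene (horizontal axis, bp) as the share of bound list and promoter pairs per 50 bp (vertical axis, %), for RP promoters (blue) and other coding promoters (grey). Both profiles peak from 0 to 100 bp downstream of the TSS, where RP promoters hold 16.9% and 17.8% per 50 bp and other promoters 10.1% and 9.81%.

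Summit positions differed between members. Counted from the TSS, with upstream positions negative, the median summit was at -130.0 bp at RPL31 and -76.5 bp at RPS7, but at 118 bp at RPS15A and 50.5 bp at RPL10A. Lists also differed: the median over bound members was 95.0 bp for SRY, against 53.0 bp at other coding promoters, and 85.5 bp for SIX5, against 25 bp. It was -66.0 bp for THAP1, against -57.0 bp, and -54.0 bp for POU2F1, against -52.0 bp.

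Exact letters of 14 short motifs were searched on both strands within 500 bp of the TSS. The motif with the largest ratio between members and all coding promoters was the CGCG element TCTCGCGA, an element known from housekeeping promoters, in 17 of 84 members (20.2%), against 2.41% of all coding promoters and 3.54% of CpG promoters. Members with it were bound by a median of 51.0 lists and members without it by 57.0. The ETS core CCGGAAG was present in 36 members (42.9%), against 22.4% of all coding promoters, and its shorter form CCGGAA, added after sequences had been seen, in 65 members (77.4%), against 39.8%. CpG promoters held these forms in 29.3% and 50.7%. The YY1 core AAGATGG was present in 26.2% of members, 16.2% of all coding promoters and 15.1% of CpG promoters. The AP-1 motif TGANTCA was present in 4.76% of members, 15.3% of all coding promoters and 9.98% of CpG promoters. The TATA box TATAAA was present in 13.1% of members, against 23.3% of all coding and 13.9% of CpG promoters, but within 100 bp of the TSS in 9.52% of members, against 6.68% and 2.67%. The GC box GGGCGGG was present in 67.9% of members, against 63.2% of all coding and 82.8% of CpG promoters, and within 100 bp of the TSS in 26.2% of members, against 38.0% and 51.2%. Each match of the ETS core is also a match of its shorter form, and the ETS and YY1 cores can overlap by the letters AAG. A match is a description of these letters and not evidence of binding.

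Close to the TSS the CGCG element lay at a similar distance in several members. Within 100 bp of the TSS, 13 members (15.5%) held it, against 1.20% of all coding promoters, among them RPL10A, RPS15A, RPS7, RPS15 and RPS6, which are 5 of the 10 most bound. The other 8 were bound by fewer lists: RPL12 by 64, RPL27A by 58, RPS28 by 52, RPL17 by 51, RPL7A by 48, RPS19 by 47, RPL26 by 46 and RPL7 by 31. The first 5 and 2 of the others, RPL12 and RPL26, are printed to show the element at both high and lower counts, with 30 bases 5′ to 3′ along the gene from hg38 and the element in capitals, which reads TCGCGAGA where it lies on the opposite strand. The first base in capitals is at -45 in RPL10A, -53 in RPS15A, 48 in RPS7, -27 in RPS15, -50 in RPS6, -55 in RPL12 and -47 in RPL26, counted in bp from the TSS at 0. In RPS7, RPS6 and RPL26 the letters TCTCGCGAGA match the element on both strands, and 1 of these 2 matches is in capitals.
RPL10A, chr6:35468345-35468374, plus strand: gcaaagcattaTCGCGAGAtcagggccact
RPS15A, chr16:18790369-18790398, minus strand: gcctttgaaagTCTCGCGAtagctctcccg
RPS7, chr2:3575297-3575326, plus strand: ttttgacgtgcTCTCGCGAgatttgggtct
RPS15, chr19:1438358-1438387, plus strand: catgccggcagTCTCGCGAtaactgcgcag
RPS6, chr9:19380268-19380297, minus strand: ttctgctcatcTCGCGAGAactgaaagcgc
RPL12, chr9:127451443-127451472, minus strand: gtgacgacagtTCTCGCGAtagccgcgttt
RPL26, chr17:8383222-8383251, minus strand: agacataggtcTCGCGAGAtctttggtaaa

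Members with the ETS core were not bound more often by ELK3 than members without it. ELK3 had a peak at 25 of 36 members with the core (69.4%) and at 39 of 48 without it (81.2%), whereas over all coding promoters it bound 45.3% of those with the core and 17.1% of those without. ELK4 had a peak at 10 of 36 members with the core (27.8%) and at 12 of 48 without it (25%), against 19.3% and 6.05% over all coding promoters. With the shorter form, ELK3 had a peak at 49 of 65 members with it (75.4%) and at 15 of 19 without it (78.9%), against 38.0% and 13.7% over all coding promoters. ELK4 had a peak at 20 of 65 members with the shorter form (30.8%) and at 2 of 19 without it (10.5%), against 15.3% and 4.83% over all coding promoters. For MGA, which binds E-boxes with MAX, 24 of 25 members with the E-box CACGTG and 56 of 59 without it had a peak, against 63.3% and 47.0% over all coding promoters. These counts were not tested, since members are not replicates.
The 2 ETS sites nearest the TSS of RPL31 and RPS18 are printed as examples of the core in well-bound members, in capitals within 30 bases along the gene from hg38.
RPL31, chr2:101002225-101002254, plus strand: tgcctggcgacCCGGAAGttgtacttgcaa
RPS18, chr6:33271990-33272019, plus strand: tgaaacagtttCCGGAAGcacttctcctag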

How the data were processed

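ChIP-seq peak lists of FLAG-tagged DAPs in HepG2 were used as deposited. The authors ran the ENCODE ChIP-seq pipeline in house and kept optimal peak calls against an input library on hg38; which aligner and peak caller were used is not given in the sources used here. In the deposited lists the score, between 540 and 1000, is higher for peaks that repeat better between replicates. The authors' signal measures a peak against its own input without scaling across lists, so ranks were taken within each list. Other deposited columns, taken as other values, give the peak's place and its summit. Classes of DAP and preferred status come from the study's table of data sets.

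TSSs were the canonical transcripts of GENCODE 44, and sequences came from hg38, in which all peaks lie within the chromosome ends. Overlaps, shares and permutation tests were computed in Python 3.11.15 with numpy 2.4.6 and pandas 2.3.3, and figures with matplotlib 3.10.9. Differences within lists were tested by 100000 random sign flips over lists, and TF against non-TF lists by 100000 permutations, all two-sided, and the functions were tested on simulated data.

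The members and gene lists were chosen with earlier results of these data known. Named by rule were the 10 members bound by most and the 10 bound by fewest lists, RPSA, the stalk proteins and the paralogs, the 10 lists with most members, those with the 10 largest and 10 smallest excesses, 16 preset DAPs, and the extremes of each gene list, of which 1 list is not reported here. Motifs searched, the description by chromosome and other names were chosen later. Alternatives were other windows, overlaps, score limits, start sites, members and lists.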

Additional observations from a re-analysis of the deposited data

Results flagged for a closer look

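The 6 non-preferred lists enter no comparison above, and 5 of them had peaks at RP promoters. ZZZ3, a histone reader of the ATAC acetyltransferase complex, bound 74 of 84 members (88.1%) and 24.2% of all coding promoters, and the median signal percentile of its peaks was 95.5 at members and 67.0 at other coding promoters. Its excess of 63.9 points is above that of every preferred list. TSC22D2 and ZNF431 each bound 55 members, against 23.4% and 26.6% of all coding promoters. EP300, a histone acetyltransferase, bound 45 members, against 16.6% of all coding promoters, and TUT4 bound 40, against 14.7%. GPBP1L1, with 73 peaks, bound 0. There is no control list without a tagged DAP among the lists used, and why these lists were not preferred was not examined.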

How the results depend on the processing

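Of 332 recomputed values, 329 kept their direction and their side of the threshold, or stayed within the spread set for counts and medians. That spread was wide: a median was kept if it moved by less than the SD over members (20.4 lists). Of the 32 to 34 alternatives per result, 24 left out the lists of 1 input library. Keeping only peaks past the stricter authors' score put the median member at 35.0 lists, against 56.0. With it, 58 members were bound by at least 25% of lists, against 76. The difference from all coding promoters was then 19.2 points, against 26.6, and that from CpG promoters 14.4, against 18.8. The signal percentile difference was 1.47 (adjusted p = 0.14, permutation test over lists). Leaving out the lists of each of 24 input libraries in turn gave medians of 46.5 to 56.0 lists, differences of 26 to 27.7 points against all coding and 3.06 to 4.48 points against mitochondrial RP promoters. It gave differences of -8.31 to -3.73 points between TF and non-TF lists, of which the lowest (adjusted p = 0.045, permutation test) came without the library that served NFIB, TRIM24, ZMYM2 and ZNF430, so that call rests on 4 lists. The difference from the proteasome ran from 3.51 points (any annotated TSS) to 8.37 points (autosomal core set). The autosomal core set, chromosome weighting and restriction to CpG promoters were added after the data were seen. No paired analysis was possible between replicates, beside the differences within lists tested above, because each DAP has 1 list and the lists carry no shared replicate numbers. Depth is unknown, and the absence of a peak does not show absence of binding.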
